A study of Homo sapiens with 6 samples.

Results

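The replication-dependent histone genes encode the H1, H2A, H2B, H3 and H4 proteins that package newly copied DNA. Their members were taken by name, as protein-coding genes whose symbol is H1-1 to H1-6 or begins with H2AC, H2BC, H3C or H4C, and the naming rule uses no measured value, although the group was picked for description with earlier results of these data known. The deposited table held 55 of them among 28563 genes, which is 0.193% of the table. GENCODE release 44 lists 70 such genes, and the other 15 were not analysed here. HepG2, an established human cell line labelled as hepatocellular carcinoma, was treated for 24 h with polydatin (PD), a plant glucoside of resveratrol, at 336 µM per the labels, while the control dishes received DMSO, the solvent. The paper's methods name another dose for this experiment. Each group had 3 libraries from separate dishes of this single cell line, and the labels name no other agent or altered allele for either group. Poly(A) RNA was captured on oligo-dT beads from total RNA. The libraries held 16308476 to 18071632 fragments. Of 12 hepatocyte markers, 5 were in the table, and apart from RBP4 they stood at 0.172 FPKM or less in every library. HNF4A, a transcription factor of hepatocytes, and SERPINA1, which encodes a plasma protein made by liver, were thus nearly absent, which goes against the liver label, so the cells are called here only by the name the labels give. RBP4, a retinol carrier, had 0.3227 to 0.4794 FPKM in DMSO and 1.058 to 1.732 FPKM in PD.

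Most mRNAs end in a poly(A) tail, whereas mRNAs of replication-dependent histones end just after a short stem-loop that the stem-loop binding protein (SLBP) holds. They are made mainly in S phase, and their supply is tied to DNA synthesis. Some of these genes also make a polyadenylated form, for which 9 are known examples listed here (H1-2, H2AC6, H2BC4, H2BC5, H2BC11, H2BC12, H2BC18, H2BC21 and H4C8). A library made from poly(A) RNA therefore counts these mRNAs only in part. In bulk libraries, fewer cells that express a gene and less of its RNA per cell cannot be told apart, and here neither can be told apart from a different share of mRNA with a tail.

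The stem-loop was looked for in hg38 within 200 bases after the stop codon, because it separates these genes from other genes. The pattern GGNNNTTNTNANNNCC, searched on the gene's own strand, was found in 54 of the 55 members (all but H2BC12L) and in 123 of 19919 protein-coding genes, or 0.618%. Its commonest exact form, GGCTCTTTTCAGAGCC, was in 30 members and in 41 coding genes, or 0.206%. Both counts over coding genes include the members and the histone genes of the same names that the table lacks. Those of the 3 members with the highest FPKM and of H4C12, a member with a higher mean in PD, are shown 5′ to 3′, with the stem in capitals and the loop in lower case.
H2BC12, chr6:27146366-27146381, minus strand: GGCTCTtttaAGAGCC
H1-2, chr6:26055744-26055759, minus strand: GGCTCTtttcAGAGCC
H2AC6, chr6:26124669-26124684, plus strand: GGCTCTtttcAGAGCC
H4C12, chr6:27831178-27831193, minus strand: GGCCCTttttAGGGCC
The 3 members of highest FPKM thus carried the motif although they are also on the list of genes with polyadenylated forms. The stem of H4C12 differed from theirs and was that of all H4 members. These include H4C8, H4C9 and H4C16, which were lower in PD by the test given below.

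The 130 bases before the start of each gene were read from RefSeq promoters of GRCh38.p14, which cover 50 members. Both strands were searched for ATTTGCAT, the octamer known from H2B promoters that the factor POU2F1 binds, for TATAAA and for CCAAT. The octamer was found in 12 of 17 H2B promoters, in 2 of 9 H2A promoters, in none of the H1, H3 or H4 promoters and in 0.916% of all 27305 promoters. TATAAA was in 6.354% of all promoters, and CCAAT was in 22.326%, including 16 of 17 H2B promoters but only 1 of 10 H4 promoters. The promoters of H2BC12 and H2AC6 (high FPKM), H2BC21 and H2BC17 (large falls) and H4C12 are shown 5′ to 3′ on the strand of the gene. Capitals mark an octamer in either orientation or TATAAA.
H2BC12, chr6:27146859-27146988, minus strand: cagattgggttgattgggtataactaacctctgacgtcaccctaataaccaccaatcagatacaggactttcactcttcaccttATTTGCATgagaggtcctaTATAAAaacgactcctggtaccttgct
H2BC21, chr1:149886683-149886812, minus strand: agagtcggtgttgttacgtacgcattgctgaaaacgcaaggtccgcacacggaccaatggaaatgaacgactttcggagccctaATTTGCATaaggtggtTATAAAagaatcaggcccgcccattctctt
H2BC17, chr6:27893295-27893424, plus strand: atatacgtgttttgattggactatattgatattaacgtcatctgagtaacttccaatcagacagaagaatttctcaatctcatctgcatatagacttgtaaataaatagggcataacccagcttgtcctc
H2AC6, chr6:26124042-26124171, plus strand: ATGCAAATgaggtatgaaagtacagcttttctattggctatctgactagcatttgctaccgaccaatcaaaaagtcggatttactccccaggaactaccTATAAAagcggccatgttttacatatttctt
H4C12, chr6:27831561-27831690, minus strand: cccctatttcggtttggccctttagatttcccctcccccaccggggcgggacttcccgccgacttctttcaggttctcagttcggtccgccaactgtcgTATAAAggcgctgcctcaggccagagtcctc
Among H2B members with such a promoter, 6 of 7 tested ones with the octamer and 3 of 4 tested ones without it were lower in PD by the test given next, with median log2 fold changes of -0.69 and -0.32. By that test 26.2% of all tested genes were lower. H2BC17, with no exact octamer in this window, was among the members that fell most.

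The first question was whether the histone mRNAs seen in these libraries differed between PD and DMSO. They were lower in PD in most measurable members, and none passed the test as higher. FPKM, the deposited unit, scales the fragments of a gene by gene length and by library total. limma was fitted to log2(FPKM + 1) of 14400 genes, those averaging 0.5 FPKM or more across both groups, and a gene was called at an adjusted p of at most 0.05 (Benjamini-Hochberg over all tested genes). This filter left 31 of the 55 members. Of these, 21 were lower in PD and 10 were not called, where 26.2% of all tested genes were lower and 31.9% were higher. The number called higher was 0, with 0 at an unadjusted p under 0.05 by limma and 0 by limma voom, a test on the whole fragments recovered from the FPKM. In 21 of the 31 members all 3 PD libraries were below all 3 DMSO libraries, against 29.9% of all tested genes, and in 0 members were they all above, against 35.6%. The fitted log2 fold change was below 0 in 29 members and had a median of -0.53, whereas the median of all tested genes was 0.01. Only 3 members (H3C13, H2BC21 and H2BC17) fell by at least 2-fold, where 1.57% of all tested genes did, and 0 rose by 2-fold, where 2.04% did. A pseudocount of 1 understates the change of low genes. By limma voom 20 of 29 tested members were lower (28.3% of all genes) and 0 were higher (34.4% of all genes). A fall of at least 2-fold was found by voom in 10 members (4.8% of all genes) and a rise of that size in 0 (6.72% of all genes), and the median log2 fold change was -0.89. The 2 methods shared 19 lower calls among 26 members that both tested.

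Of the 24 members left untested, 13 had under 10 fragments over the 6 libraries together. Their mean FPKM was lower in PD in 17 and higher in 7. The filter was passed by 5 members whose mean in PD was under 0.5 FPKM and by 0 members whose mean in DMSO was, so members entered through the DMSO group. Among the 26 members with at least 0.5 FPKM in both groups, 18 were lower. Just inside the filter were H3C7, with a mean of 0.544 FPKM, and H4C4, with 0.594 FPKM, and just outside were H4C15, with 0.485 FPKM, and H3C6, with 0.436 FPKM.

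**Figure D1:**
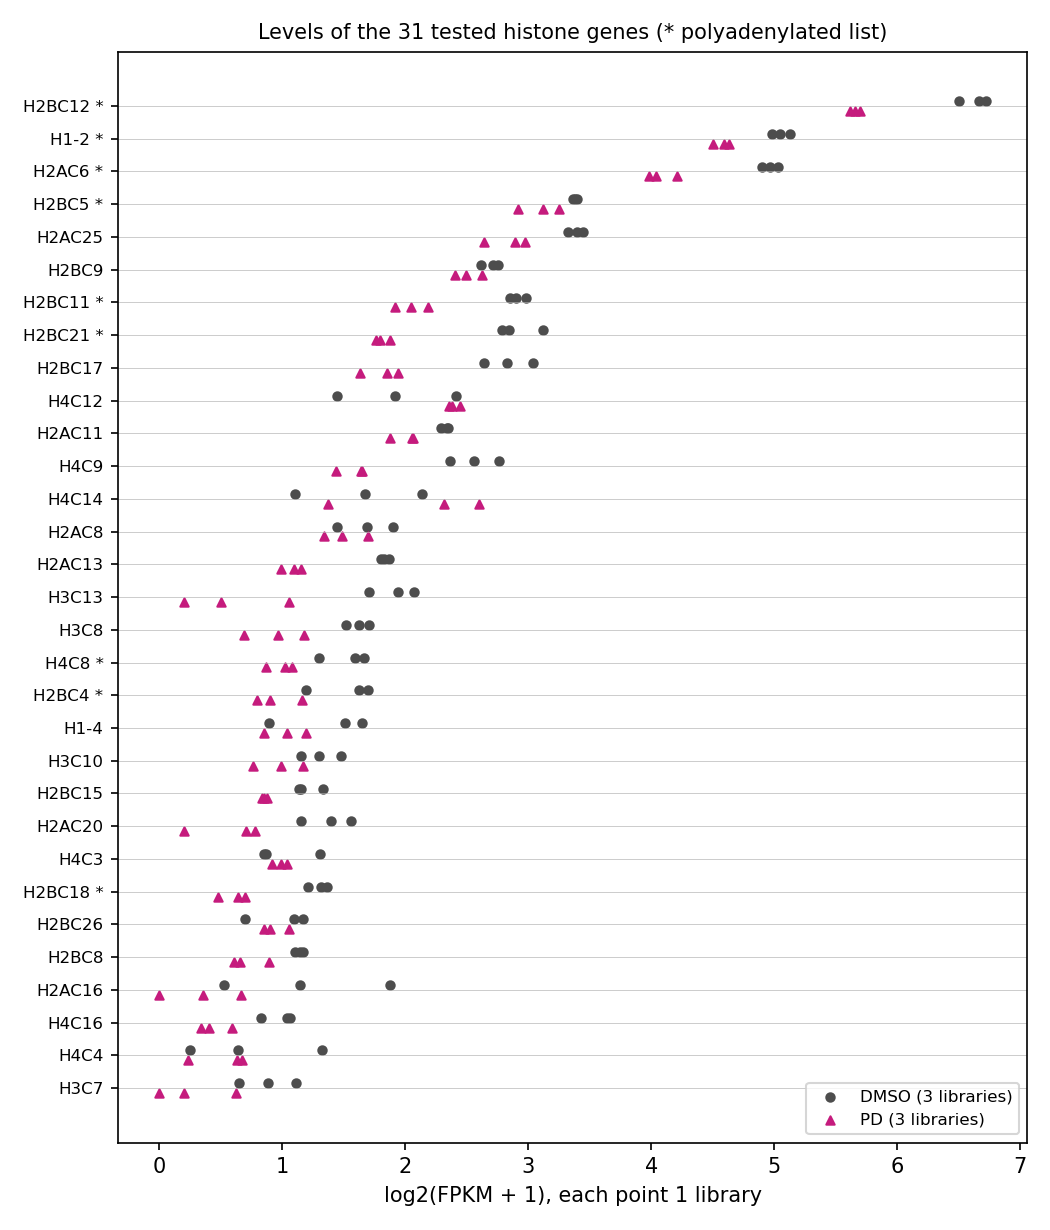
Level of each of the 31 tested histone genes, as log2(FPKM + 1) on the horizontal axis, in the 3 DMSO libraries (grey circles) and the 3 PD libraries (magenta triangles), ordered by mean FPKM. In 21 genes all PD points lie to the left of all DMSO points, and H2BC12, H1-2 and H2AC6 stand above the other genes.

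Summed over the 55 members, the FPKM were 261.95, 239.44 and 253.65 in the DMSO libraries and 143.28, 148.18 and 143.73 in the PD libraries. The sums did not overlap, and the PD mean was 0.576 times the DMSO mean (251.68 ± 11.384 against 145.06 ± 2.7064, SD, n = 3). As fragments over the library total, with gene length left out, the ratio was 0.582. H2BC12 alone held 39.0% ± 1.30 of the summed FPKM in DMSO and 34.2% ± 1.57 in PD (SD, n = 3), and without it the ratio was 0.623. Thus the lower sum did not rest on H2BC12.

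H2BC12 (ENSG00000197903, chr6:27146361-27146855, 1 exon) encodes an H2B protein and had the highest FPKM of all members. Its FPKM were 104.7, 89.87 and 100.3 in DMSO and 49.53, 48.07 and 51.02 in PD. The lowest DMSO library was well above the highest PD library. The log2 fold change was -0.97 ± 0.06 (SE; limma, adjusted p = 1.34e-05). H1-2 (ENSG00000187837, chr6:26055740-26056470, 1 exon), a linker histone gene, followed with 33.9, 30.66 and 32.05 FPKM in DMSO and 21.72, 23.1 and 23.78 FPKM in PD. Its groups did not overlap, and its log2 fold change was smaller, at -0.48 ± 0.05 (SE; limma, adjusted p = 0.000171). For H2AC6 (ENSG00000180573, chr6:26124145-26139116, 2 exons), an H2A gene, the libraries had 31.72, 30.18 and 28.88 FPKM in DMSO and 14.83, 17.48 and 15.44 FPKM in PD. All PD libraries were lower, with a log2 fold change of -0.89 ± 0.07 (SE; limma, adjusted p = 3.17e-05). An exon of H2AC6 overlaps another annotated gene, and the counting is not stated to use strand, so part of its fragments may belong to that gene.

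The FPKM of these genes depend on the gene length the counting used. The steps in the FPKM imply 381 bases for H2BC12, which is its coding length, and 1668 bases for H2AC6, whose coding length is 393. Over the 6 libraries, 3960 fragments were counted on H2AC6, more than the 2896 on H2BC12. Of the 55 members, 12 had a length equal to their coding length, 30 had a longer one and 13 had too few fragments to judge. Levels between members are therefore less certain than the difference between PD and DMSO for 1 member. The number of lower calls was 6 of 9 tested members with the coding length and 15 of 22 with a longer one (26.2% of all tested genes). H2AC16, H2AC20, H3C7 and H4C4, with the coding length, and H4C16, with a longer one, passed the filter only through DMSO.

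Near-identical copies limit which member a fragment is counted on. The 100-base windows of GENCODE transcripts were compared with transcripts of other genes with histone names, and the rest of the genome was not searched. Of the 31 tested members, 21 shared no window, and 3 tested members (H4C12, H4C14 and H2AC13) shared over 50% of theirs. The values of these 3 are uncertain, and they include both members whose fitted change was above 0. Sharing also touched members that were lower in PD: H3C13 shared 46.2% of its windows, H2BC12 22.5%, H2BC18 21.1% and H2AC20 12.7%.

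Histone types were compared next, by counts and medians without a test between types. The medians by type are from limma on log2(FPKM + 1), and their order depended on the method. Over the members that limma voom tested, its medians were -1.588 for H3, -0.922 for H2B, -0.625 for H2A, -0.51 for H1 and -0.231 for H4. H2B genes made up the largest group and 9 of 11 tested were lower (26.2% of all tested genes), with a median log2 fold change of -0.56. Among them were H2BC21 and H2BC17, which fell by at least 2-fold. H2BC21, near the end of the larger chromosome 1 cluster, had 7.704, 6.172 and 5.915 FPKM in DMSO and 2.673, 2.392 and 2.459 FPKM in PD. The highest PD value lay far below the lowest DMSO value, and the log2 fold change was -1.11 ± 0.09 (SE; limma, adjusted p = 5.85e-05). H2BC17 had 6.077, 7.202 and 5.216 FPKM in DMSO and 2.614, 2.845 and 2.092 FPKM in PD, from 120 fragments in DMSO and 50 in PD. Its groups were again apart, with a log2 fold change of -1.02 ± 0.12 (SE; limma, adjusted p = 0.000291). H2BC9 (6th in mean FPKM) narrowly missed the threshold, with 5.142, 5.56 and 5.76 FPKM in DMSO and 4.62, 4.293 and 5.15 FPKM in PD. The groups of H2BC9 overlapped by very little, and the limma adjusted p was 0.0507 at a log2 fold change of -0.19 ± 0.07 (SE).

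Of the H2A genes, 5 of 7 tested were lower (26.2% of all tested genes), with a median log2 fold change of -0.76. Among the 7, H2AC20 and the uncalled H2AC16 passed the filter only through DMSO. H2AC25, from the smaller chromosome 1 cluster, had 9.508, 9.865 and 9.013 FPKM in DMSO and 6.43, 5.227 and 6.851 FPKM in PD, without overlap (log2 fold change -0.55 ± 0.09, SE; limma, adjusted p = 0.00133). The H3 genes were all low, and 3 of 4 tested were lower (26.2% of all tested genes), with a median log2 fold change of -0.64. H3C13 showed the largest fall of any tested member, with 2.254, 3.193 and 2.844 FPKM in DMSO and 1.077, 0.4164 and 0.1492 FPKM in PD. This was 58 fragments in DMSO and 12 in PD, so the value in each PD library rests on 1 to 8 fragments. The log2 fold change of H3C13 was -1.32 ± 0.21 (SE; limma, adjusted p = 0.00142), and by limma voom it was -2.46 ± 0.49 (SE; adjusted p = 0.000158). H3C13 shared 46.2% of its windows with other copies. H3C7, called as lower at an adjusted p of 0.0286 (limma), passed the filter only through DMSO. H3C7 had 18 fragments in DMSO and 5 in PD. It failed limma's filter without DMSO replicate 1 and without DMSO replicate 2, and was not called without PD replicate 2 (adjusted p = 0.0872) or PD replicate 3 (adjusted p = 0.0787).

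Of the H4 genes, 3 of 7 tested were lower (H4C8, H4C9 and H4C16), where 26.2% of all tested genes were, with a median log2 fold change of -0.23 over the 7. Among the 7, H4C16 and the uncalled H4C4 passed the filter only through DMSO. H4C9 had 4.16, 4.887 and 5.782 FPKM in DMSO and 2.138, 2.116 and 1.706 FPKM in PD, with a log2 fold change of -0.99 ± 0.11 (SE; limma, adjusted p = 0.000237). H4C12 and H4C14, singled out after their values were seen, had higher means in PD and were not called with all libraries. H4C12 had 2.783, 1.721 and 4.309 FPKM in DMSO and 4.434, 4.206 and 4.127 FPKM in PD. Its DMSO replicate 3 lay within the PD values, and the limma adjusted p was 0.0970 with all libraries and 0.00556 without that library, at log2 fold changes of 0.47 and 0.71. H4C14 had 3.394, 1.145 and 2.181 FPKM in DMSO and 1.593, 5.048 and 3.988 FPKM in PD, so its groups overlapped widely (limma, adjusted p = 0.305). H4C12 and H4C14 shared 91.3% and 96.9% of their windows with other copies, the highest shares among tested members.

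Of the H1 genes, H1-1, H1-3, H1-5 and H1-6 stayed under the filter, and 1 of 2 tested was lower (26.2% of all tested genes). H1-4, which was not called, had 1.843, 2.136 and 0.8528 FPKM in DMSO and 0.8073, 1.286 and 1.057 FPKM in PD. Its DMSO replicate 3 was as low as the PD libraries, and the limma adjusted p of 0.211 became 0.0109 without it, at log2 fold changes of -0.32 and -0.55. In the summed FPKM, the ratio of PD to DMSO was 0.701 for H1, 0.559 for H2A, 0.530 for H2B, 0.415 for H3 and 0.848 for H4. The sums of H4 overlapped between groups (12.684 to 19.205 in DMSO and 11.962 to 15.602 in PD), and those of the other types did not. As fragments over the library total, in contrast, H4 had a ratio of 0.674 and its libraries did not overlap, so the overlap of H4 held on the FPKM scale only.

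**Figure D2:**
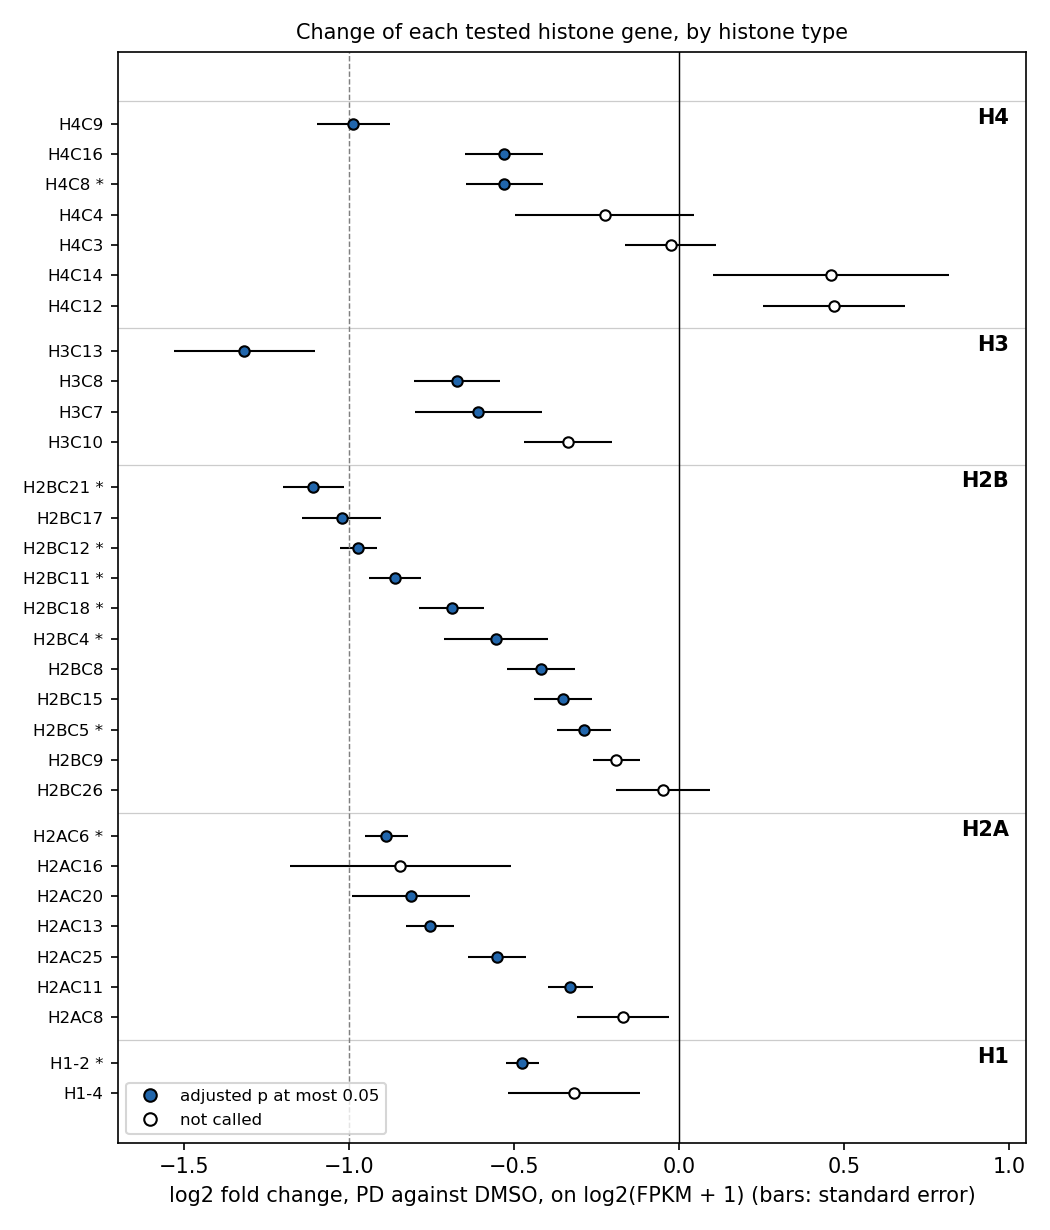
Log2 fold change of each tested histone gene, PD against DMSO, on log2(FPKM + 1), with its standard error, arranged by histone type. Filled points passed an adjusted p of at most 0.05, an asterisk marks genes of the polyadenylated list, and the dashed line marks a 2-fold fall. The 2 points clearly right of 0, H4C12 and H4C14, are open and belong to H4.

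**Figure D3:**
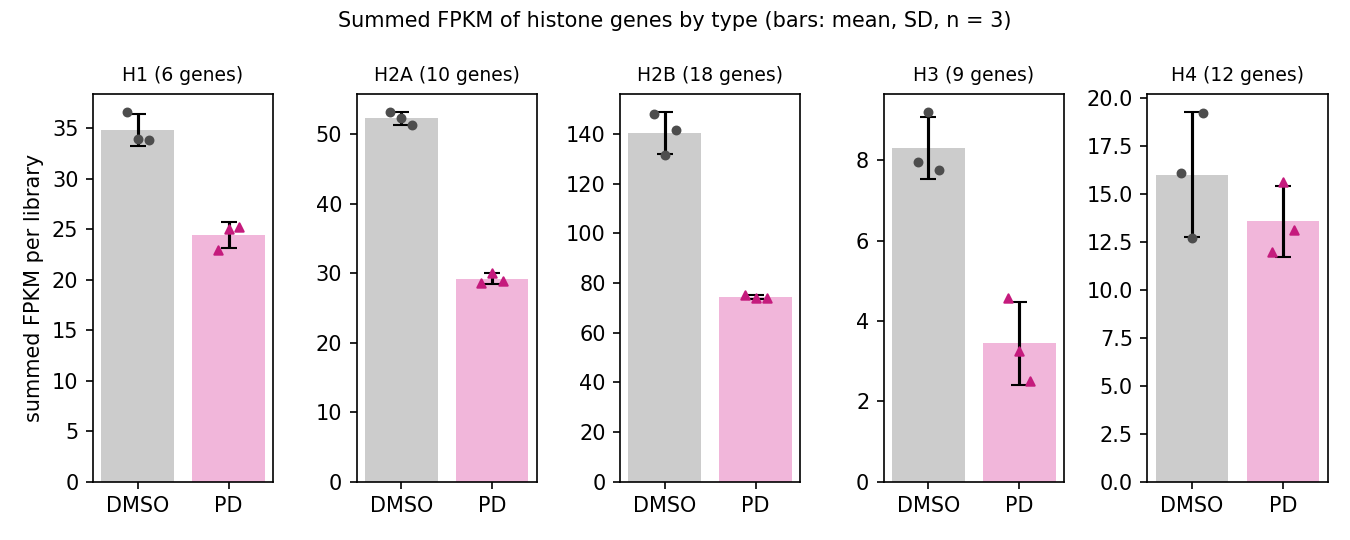
Summed FPKM of the members of each histone type in each library, with bars for the mean and the SD over 3 libraries. Each panel has its own vertical axis starting at 0. On this FPKM scale DMSO and PD points are apart for H1, H2A, H2B and H3 and overlap for H4, whose fragments over the library total did not overlap.

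Genes known to make polyadenylated forms were then compared with the other members. All 9 of the list were tested and all 9 were lower, 1 of them by at least 2-fold (26.2% and 1.57% of all tested genes). Their median log2 fold change was -0.69. Without the filter 7 were lower, with H2BC4 and H2BC5 lost, and 8 were lower with a replicate block. Outside the list, 12 of 22 tested members were lower with a median of -0.39. The 5 members that passed the filter only through DMSO were all outside the list, and H2AC20, H3C7 and H4C16 of these were called as lower. The list holds the members of highest FPKM: 74.9% ± 1.25 of the summed FPKM in DMSO and 71.7% ± 0.829 in PD (SD, n = 3). Its summed FPKM were 199.57, 176.48 and 189.49 in DMSO and 102.29, 105.33 and 104.42 in PD, a ratio of 0.552. Members outside it summed to 62.378, 62.961 and 64.167 in DMSO and 40.987, 42.845 and 39.308 in PD, a ratio of 0.650. Both sums were lower in PD without overlap between the groups. Since the list is also the better measured part, the difference in counts between it and the other members cannot be separated from their level.

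Within the list, H2BC11 fell by 0.86 ± 0.08 on the log2 scale (SE; limma, adjusted p = 8.49e-05), with 6.217 to 6.891 FPKM in DMSO and 2.775 to 3.553 FPKM in PD. H2BC18, whose exons overlap FCGR1A, an immunoglobulin receptor gene, went from 1.307 to 1.576 FPKM in DMSO to 0.3927 to 0.6233 FPKM in PD. H4C8 had 1.462 to 2.162 FPKM in DMSO and 0.8186 to 1.106 FPKM in PD. H2BC5 changed least, with 9.437, 9.315 and 9.53 FPKM in DMSO and 7.687, 8.515 and 6.547 FPKM in PD (log2 fold change -0.29 ± 0.08, SE; limma, adjusted p = 0.0191). Its groups were still apart, and its call was lost without the filter (adjusted p = 0.0538). H2BC4 was the least stable: its FPKM were 2.082, 1.287 and 2.243 in DMSO and 0.8625, 1.231 and 0.7352 in PD, with an adjusted p of 0.0188 (limma). That call was lost without DMSO replicate 1 (adjusted p = 0.0611), DMSO replicate 3 (0.0609), PD replicate 1 (0.0552) or PD replicate 3 (0.0629), and also without the filter (0.0633) and with a replicate block (0.0502). Exons of H2AC6, H2BC4, H2BC18 and H4C8 overlap other genes.

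As a second view of the same question, members with more than 1 annotated exon in any transcript were counted, since spliced histone transcripts usually carry a poly(A) tail. Of 15 such members, 11 were tested and 9 were lower (26.2% of all tested genes were). Of 40 members with 1 exon, 20 were tested and 12 were lower. H2AC16, H2AC20, H3C7 and H4C4, with 1 exon, passed the filter only through DMSO, as did H4C16 with more than 1. The medians were close, at -0.53 and -0.54, and the summed FPKM had ratios of 0.618 and 0.561. Other RNAs that carry no poly(A) tail were also looked at, but too few were counted to measure how much untailed RNA each library took in. Of 16 listed, 9 were in the table and 2 passed the filter. RN7SL2, an RNA of the signal recognition particle, had 50.36, 32.61 and 48.32 FPKM in DMSO and 30.8, 34.23 and 28.41 FPKM in PD (limma, adjusted p = 0.0402), with DMSO replicate 2 inside the PD range, and its call was lost under several settings. RNU5A-1, a spliceosomal RNA counted at 0 to 1 fragments in each DMSO library and 2 to 4 in each PD library, was called as higher (limma, adjusted p = 0.0215). RNU5A-1 passed the filter only through PD. The part of untailed RNA in the histone result was not tested.

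The members lie in 7 places, taking gaps under 300 kb as 1 cluster. The counts by cluster are small and stand beside 26.2% of all tested genes that were lower. The large cluster at chr6:25723397-26285638 held 26 members of the table, of which 13 were tested and 8 were lower, with a median log2 fold change of -0.42. Its neighbour at chr6:27125897-27147562, with H2BC11, H2BC12, H2AC11 and H4C9, had 4 of 4 tested members lower and a median of -0.92. At chr6:27807479-27893891, 3 of 6 tested members were lower, and the number was 5 without DMSO replicate 1. On chromosome 1, 4 of 5 tested members were lower at chr1:149782689-149887965 and 1 of 2 at chr1:228434777-228463104. H4C16, alone on chromosome 12, was lower with 0.7709 to 1.088 FPKM in DMSO and 0.2616 to 0.509 FPKM in PD, and H2BC12L on chromosome 21 had 5 fragments in all. H4C16 passed the filter only through its DMSO libraries, as did H3C7 and H4C4 in the large cluster. The same held for H2AC16 at chr6:27807479-27893891 and H2AC20 at chr1:149782689-149887965. Summed FPKM were lower in all PD libraries than in all DMSO libraries for each cluster but that of H2BC12L. Among single tested genes, 29.9% had all PD libraries below all DMSO libraries.

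Many H2A and H2B genes start back to back from 1 shared promoter region. Among genes adjacent by start position there were 11 such pairs, 4 of them with both genes tested. H2BC4 and H2AC6 also start back to back but are not in this count, because the long annotated span of H2BC4 covers other members. Both were lower, with log2 fold changes of -0.555 and -0.888, and the call of H2BC4 was unstable. H2BC21 and H2AC20, with 235 bases between their starts, had log2 fold changes of -1.11 and -0.81 and both were lower, although H2AC20 rests on 32 fragments in DMSO and 10 in PD, passed the filter only through DMSO and was not tested by voom. H2BC11 and H2AC11 were also both lower, at -0.86 and -0.33. For H2BC8 and H2AC8 the values were -0.42 and -0.17, and only H2BC8 was called. For H2AC25 and H2BC26 they were -0.55 and -0.05, and only H2AC25 was called. The difference within a pair was not tested.

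The genes that make, bind or place histones are set beside the shares of all tested genes, 26.2% lower and 31.9% higher. Of 22 tested factors of histone transcription and mRNA processing, 6 were lower and 8 were higher, near those shares, with a median log2 fold change of 0.04. SLBP, which binds the stem-loop, rose from 35.43, 35.77 and 35.4 FPKM in DMSO to 48.1, 46.91 and 47.94 FPKM in PD (log2 fold change 0.41 ± 0.03, SE; limma, adjusted p = 2.49e-05). NPAT, the coactivator of histone genes at their nuclear bodies, had 4.062 to 4.141 FPKM in DMSO and 4.2 to 4.679 FPKM in PD and was not called (limma, adjusted p = 0.237). MIF4GD, an SLBP partner in histone mRNA translation, had 8.152 to 8.469 FPKM in DMSO and 15.55 to 16.79 FPKM in PD. The cyclins CCNE1 and CCNE2, which with CDK2 act on NPAT, rose by log2 fold changes of 0.63 and 0.65. POU2F1, the factor of the octamer, was among the lower genes, at 2.935 to 3.51 FPKM in DMSO and 2.278 to 2.427 FPKM in PD; it was singled out after its value was seen.

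Histone chaperones, which carry histones to and from DNA, showed 9 lower and 7 higher among 22 tested (26.2% and 31.9% of all tested genes), with a median log2 fold change of -0.05. ASF1B, a chaperone of new H3 and H4, rose from 32.25 to 34.5 FPKM in DMSO to 69.75 to 71.84 FPKM in PD (log2 fold change 1.06 ± 0.04, SE). CHAF1B, a subunit of the CAF-1 complex that places H3 and H4 on copied DNA, rose by 0.72. ANP32E, which removes H2A.Z, had 43.52 to 47.87 FPKM in DMSO and 20.43 to 22.59 FPKM in PD (log2 fold change -1.09 ± 0.06, SE).

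Histone genes whose expression does not depend on replication, most of which make ordinary polyadenylated mRNAs, gave 3 lower and 3 higher of 9 tested, near the shares of all tested genes (26.2% and 31.9%), with a median log2 fold change of -0.05. H1-10, a linker histone gene, had 89.62, 78.06 and 86.73 FPKM in DMSO and 58.49, 61.1 and 58.96 FPKM in PD. Its groups were apart, and the log2 fold change was -0.50 ± 0.05 (SE; limma, adjusted p = 0.000167). H3-3B, which encodes the H3.3 variant, fell by 0.46 on the log2 scale. H2AX, which makes both a stem-loop and a polyadenylated mRNA and whose product marks DNA breaks once phosphorylated, was higher, with 84.75 to 91.41 FPKM in DMSO and 111.9 to 112.6 FPKM in PD. H2AZ1 and H2AZ2, singled out after their values were seen, also rose, by 0.24 and 0.26.

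Of 19 tested genes with a role in S phase, 11 were higher and 6 were lower (31.9% and 26.2% of all tested genes), with a median log2 fold change of 0.29. CDC6, which loads the replicative helicase, rose from 16.83 to 17.9 FPKM in DMSO to 38.64 to 40.26 FPKM in PD. CDT1 (loading factor) and RFC4 (clamp loader subunit) rose by 0.62 and 0.60. Of the 6 lower genes, MCM2 and MCM5, singled out after their values were seen, fell most, with log2 fold changes of -0.40 and -0.33. No share of cells in S phase was measured in these libraries, and its part in the histone result was not tested.

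**Figure D4:**
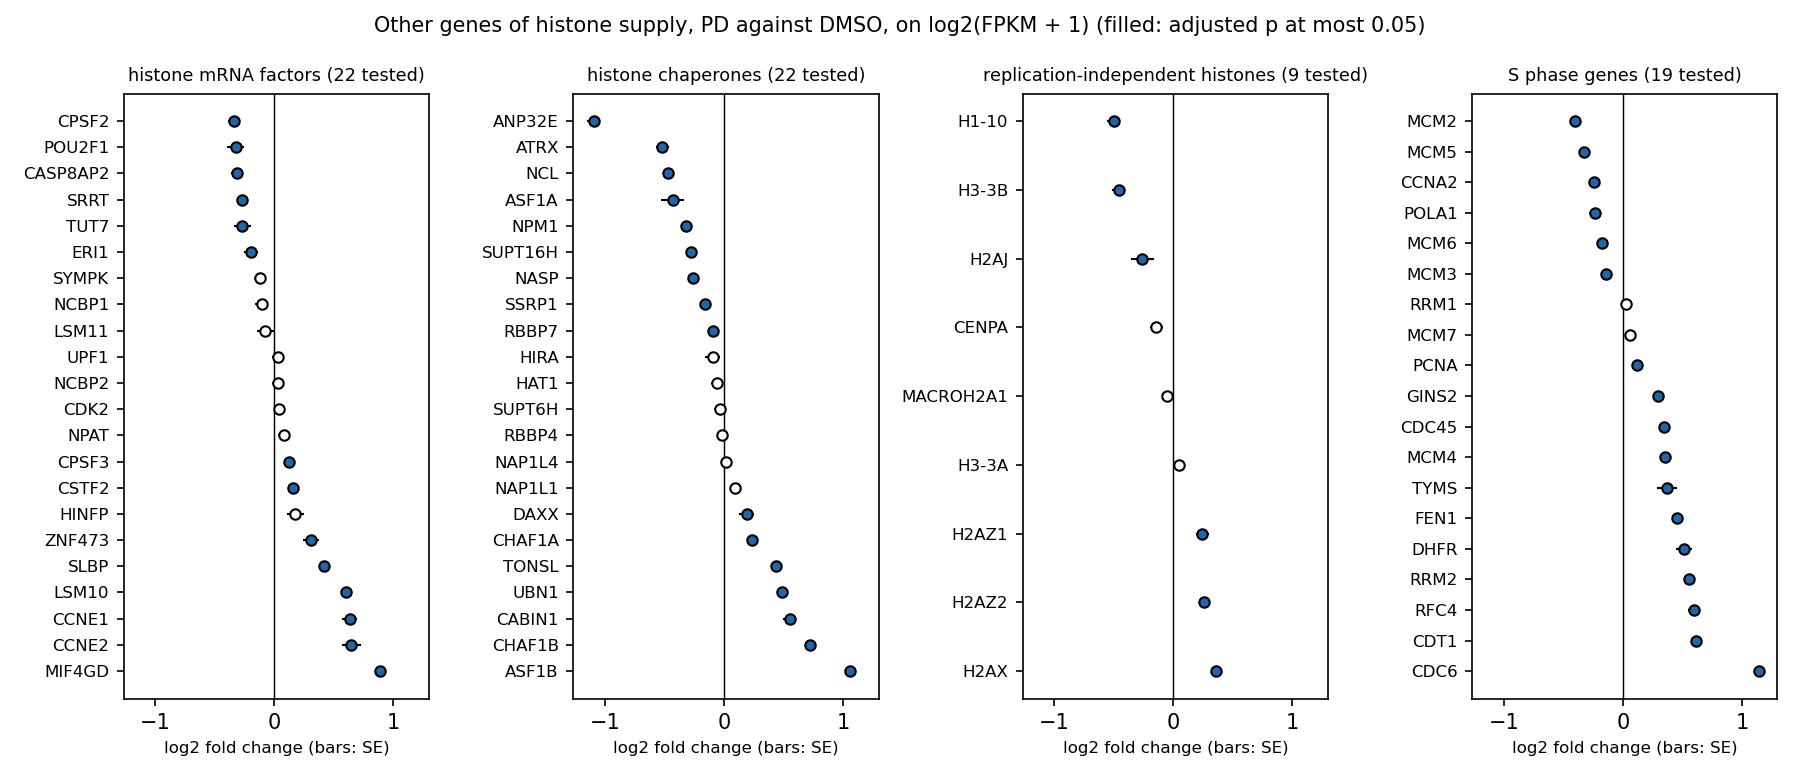
Log2 fold change with its standard error, PD against DMSO on log2(FPKM + 1), for the tested genes of 4 lists linked to histone supply. Filled points passed an adjusted p of at most 0.05. All 4 lists hold genes on both sides of 0, and most S phase genes lie to the right.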

How the data were processed

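Per the labels and the paper's methods, libraries of poly(A) RNA were aligned to hg38 with HISAT2 and counted with HTSeq 0.6.0, and the authors turned the counts into FPKM and deposited a single table of FPKM in 6 libraries. The annotation release and the strand setting of the counting are not given in the sources used here. Symbols, exons and coordinates came from GENCODE release 44, and promoters from RefSeq (GRCh38.p14). The histone members, though defined by name alone, and all gene lists were chosen with earlier results of these data known.

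Groups came from the treatment labels. The deposited FPKM were tested as log2(FPKM + 1) with limma 3.58.1 (R 4.3.3) without covariates, letting the prior variance follow intensity, for genes averaging 0.5 FPKM or more. Whole fragments were recovered from the FPKM for all 28563 genes (12879 by exon length, 15684 by a common step) and used for depth and limma voom, with at least 10 fragments in 3 or more libraries. The genes hold 99.75% of each library total, and 13468 to 13858 genes have under 10 fragments. Replicates were not copies of 1 library: the chi-square per gene was 2.30 to 3.78 within groups. On simulated data with 200 changed genes, limma found 194 of them with 6 false calls in 14460 genes, whereas voom found 199 with 3 false calls in 15040. The changed genes there had a mean of at least 5 FPKM, which only 6 members reach, and changes above 2-fold. A simulated call also needed a 2-fold change. These rates therefore do not apply to the histone calls, which used the adjusted p alone.

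The named genes are the 6 members of highest mean FPKM, the 5 largest called falls, the polyadenylated list, the 2 members nearest the filter on each side, and in the other lists the 3 largest called changes with SLBP and NPAT. One gene of the other lists is not reported here. Others are named where few or where their copies overlap. An exact permutation test over 3 and 3 libraries cannot go below 0.10 and was not used. Alternatives were other scalings, a pseudocount of 0.1, no filter, voom, a replicate block and leaving out each library. Python 3.11.15, pandas 2.3.3, pysam 0.24.0 and matplotlib 3.10.9 were used.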

Additional observations from a re-analysis of the deposited data

How the results depend on the processing

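The number of histone members lower in PD was 23 with upper quartile scaling, 22 with median-of-ratios scaling, 21 with a pseudocount of 0.1, 20 without the filter, 20 by voom and 20 to 22 without single libraries, and 17 members were lower under every setting. The number lower by at least 2-fold was 5 with either scaling, 11 with a pseudocount of 0.1, 10 by voom and 2 to 5 without single libraries. A member was higher in 1 case without the filter (H2BC10, with 4 fragments in all, an H2B gene of the large chromosome 6 cluster) and in 1 case without DMSO replicate 3 (H4C12, an H4 gene of the third chromosome 6 cluster); leaving out other libraries gave 0. Leaving out 1 library gave 1 to 2 lower H1 members and 3 to 5 lower members in the cluster of H4C12. Of the untailed RNAs, the number lower was 0 without the filter, 0 with the block and 0 to 1 without single libraries, and the number higher was 0 without the filter, 0 by voom and 0 to 2 without single libraries. Upper quartile scaling gave 5 lower replication-independent histone genes in place of 3. The summed FPKM of the polyadenylated list in PD was 102.35 and 102.45 under the scalings. With the replicate number as a block, 22 members were lower and 3 by at least 2-fold; same-numbered libraries deviated together with correlations of -0.027, -0.005 and 0.09, so the numbers were not taken to pair dishes. Of 378 values of named genes over the alternatives, 353 kept their call, 20 lost it, 5 gained it and 0 changed direction. The cause of these changes was not tested. Depth limits the 13 members under 10 fragments, none of which was tested with the filter.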

Other observations

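Of the 7 histone pseudogenes with names of the same form in the table, 4 passed the filter and 0 were called (limma; 0 at an unadjusted p under 0.05). H2BC20P, with 6.982, 8.407 and 6.508 FPKM in DMSO and 6.98, 7.322 and 7.531 FPKM in PD, had the same mean in both groups (log2 fold change 0.00 ± 0.09, SE; limma, adjusted p = 0.984). H2BC19P had 6.81, 8.833 and 8.063 FPKM in DMSO and 9.204, 7.29 and 9.453 FPKM in PD (limma, adjusted p = 0.417). Their levels were close to those of H2BC5 and H2AC25, coding members that were lower in PD. H2AC10P had lower FPKM in all 3 PD libraries, from 24 fragments in DMSO and 13 in PD, and was not called (limma, adjusted p = 0.178).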
